A study of Mus musculus with 6 samples.

Results

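Amino acid transporters of the Slc1, Slc3, Slc6, Slc7, Slc36, Slc38 and Slc43 families were followed in RNA sequencing of glomeruli, the filtering units of the kidney. Members were the genes whose mouse symbol begins with Slc1a, Slc3a, Slc6a, Slc7a, Slc36a, Slc38a or Slc43a and that had at least 10 counts in at least 3 libraries. Of 57132 gene rows, 67 carried such a symbol and 51 of these were members. The other 16 fell below the count rule, 6 of them with 0 counts in every library. Since a gene could enter through the genotype in which it is high, counts over the members describe the genes kept and not the whole families. Of the 51 members, 49 are carriers or their subunits, and Slc6a19os and Slc7a6os are named only for lying on the opposite strand of one. Slc1a7 was too low for the test, which left 50 tested.

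The genotypes compared were Cre+/Setdb2fl/fl (Cre_positive, 3 samples) and its control, Cre-/Setdb2fl/fl (Cre_negative, 3 samples). All 6 samples were glomeruli, all carried floxed alleles of Setdb2, which encodes a putative histone H3 lysine 9 methyltransferase, and all were labelled DKD, the abbreviation of diabetic kidney disease. The design text asks about the SETDB2 of podocytes, the cells whose foot processes wrap the capillaries of the glomerulus. The sources used here do not give the Cre driver, the model of diabetes, or the age and sex of the animals. Nothing in the labels says whether each sample is a separate animal, so p-values describe spread among samples that may be technical.

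Filtered amino acids are taken back almost completely in the proximal tubule, the segment that follows the glomerulus. Carriers of the brush border bring them in from the filtrate, and exchangers and uniporters of the basolateral membrane pass them on to the blood. Several of these work as pairs in which a heavy chain of the Slc3 family carries a light chain of the Slc7 family to the membrane. Another set of carriers is transcribed more strongly when amino acids run short or under oxidative stress, through the transcription factors ATF4 and NRF2.

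The libraries held between 53571438 and 58807042 counts. Setdb2 itself had 427, 444 and 391 counts in the Cre_positive libraries and 591, 492 and 370 counts in the Cre_negative libraries, and it did not pass the test (log2 fold change -0.12, adjusted p = 0.738, edgeR). Xist, which coats and silences the inactive X chromosome, had 24 counts in Cre_positive replicate 2 and at least 36474 in each other library, while Ddx3y, Uty, Kdm5d and Eif2s3y of the Y chromosome had 0 in all. The proximal tubule is not a part of the glomerulus, yet the summed level of 20 tubule markers that are not amino acid carriers was 25003 to 27880 CPM, counts scaled to a common library size, in Cre_positive libraries and 22570 to 28318 CPM in Cre_negative libraries. The 10 podocyte markers summed to 800 to 898 CPM in Cre_positive libraries and 583 to 662 CPM in Cre_negative libraries. In bulk RNA, fewer cells of a type and less RNA per cell cannot be told apart.

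Brush-border and basolateral carriers of the proximal tubule made up most of the members' signal, and the members that were higher in Cre_positive glomeruli came largely from these groups. In edgeR's quasi-likelihood test with Benjamini-Hochberg adjustment over all genes, 7 of 50 members were higher, which is 14.0% beside 3.73% of all 19927 genes tested. Another 2 were lower, which is 4.0% beside 3.82% of all genes. The 7 higher members were Slc7a7, Slc7a8, Slc3a2, Slc6a19, Slc7a9, Slc6a15 and Slc7a2, and the 2 lower ones were Slc6a12 and Slc38a6. At an unadjusted p under 0.05, 11.5% of all genes were higher and 12% were lower. DESeq2 called 7.04% of the 17994 genes it gave an adjusted p higher and 7.95% lower, and limma voom called 4.03% of all genes higher and 4.24% lower. The median log2 fold change was 0.05 over the 50 members and -0.00089 over all genes. Without Cre_positive replicate 2, the library with little Xist, 6 members were higher and 1 was lower. The calls of Slc6a12, Slc38a6 and Slc7a2 were then lost, and the lower member was Slc7a3.

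The genotypes did not overlap, with every Cre_positive library above every Cre_negative library, for 14 members, 28% beside 15.2% of all genes. Every Cre_positive library was below every Cre_negative library for 10 members, 20% beside 14.5%. All members together summed to 5992 to 6102 CPM in Cre_positive libraries and 4971 to 5337 CPM in Cre_negative libraries. By family, the Slc7 sum was 1148 to 1268 CPM in Cre_positive libraries and 686 to 765 CPM in Cre_negative libraries. The Slc38 sums overlapped, at 530 to 598 CPM in Cre_positive libraries and 554 to 709 CPM in Cre_negative libraries.

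**Figure D1:**
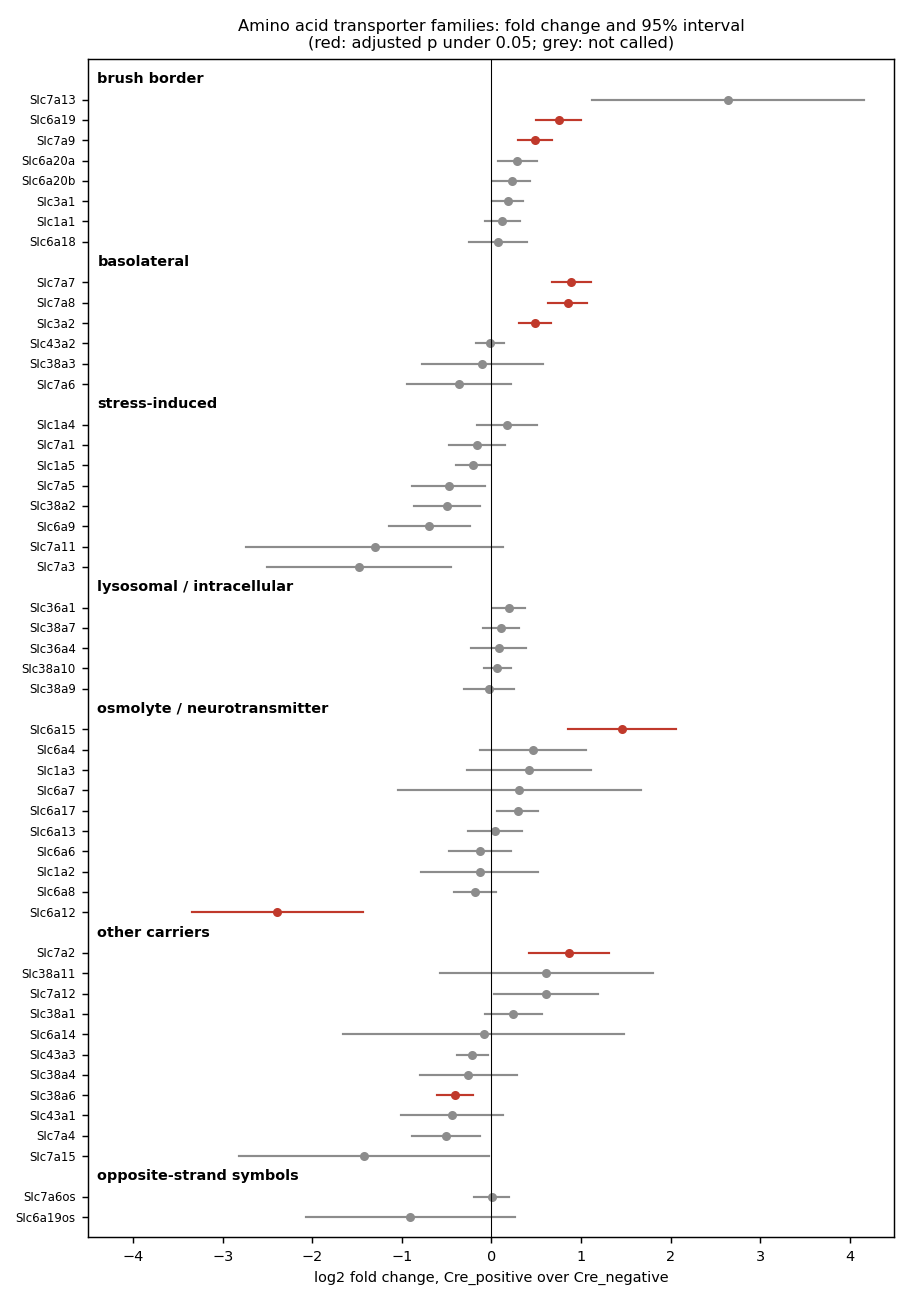
Log2 fold changes of Cre_positive over Cre_negative (x axis) for the tested members, grouped by role down the page, with points for the estimates and bars for their 95% intervals. Slc7a7, Slc7a8 and Slc6a19 lie to the right of 0, Slc6a12 lies at -2.39, and the brush-border members all have positive estimates.

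Promoter sequence is shown for 1 member of each of the 3 main roles, as windows from 250 bases before to 50 bases after the RefSeq start site (GRCm38.p6). Capitals mark the letters that matched a searched motif. In Slc3a1, the heavy chain of the brush border (chr17:85028097-85028396, plus strand), they are CAAAGTCCA, a core of sites for HNF4, a transcription factor of proximal tubule cells. In Slc7a7, a basolateral light chain (chr14:54417895-54418194, minus strand), and in Slc7a11, a stress-induced cystine carrier (chr3:50443564-50443863, minus strand), they are forms of TGATGNAA, the core of the amino acid response element bound by ATF4 dimers.
Slc3a1: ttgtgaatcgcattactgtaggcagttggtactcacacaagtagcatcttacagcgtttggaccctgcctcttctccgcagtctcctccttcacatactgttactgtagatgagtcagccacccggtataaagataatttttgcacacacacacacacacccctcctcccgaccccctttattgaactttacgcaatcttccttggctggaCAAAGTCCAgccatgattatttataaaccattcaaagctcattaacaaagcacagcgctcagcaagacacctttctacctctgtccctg
Slc7a7: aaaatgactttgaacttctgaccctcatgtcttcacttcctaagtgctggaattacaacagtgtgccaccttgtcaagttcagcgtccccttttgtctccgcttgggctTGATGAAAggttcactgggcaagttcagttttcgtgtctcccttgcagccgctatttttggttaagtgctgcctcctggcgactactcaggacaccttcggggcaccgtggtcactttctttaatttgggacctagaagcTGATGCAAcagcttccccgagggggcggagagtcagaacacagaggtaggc
Slc7a11: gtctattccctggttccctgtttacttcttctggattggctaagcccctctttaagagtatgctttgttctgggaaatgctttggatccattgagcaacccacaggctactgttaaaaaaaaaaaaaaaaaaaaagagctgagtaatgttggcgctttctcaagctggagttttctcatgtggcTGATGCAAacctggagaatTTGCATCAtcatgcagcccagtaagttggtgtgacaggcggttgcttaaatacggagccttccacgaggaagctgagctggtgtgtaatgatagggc
The HNF4 core of Slc3a1 begins 39 bases before the start site. Of 5 start sites listed for Slc7a7 the window of the first is shown, the only one with 2 matches, which begin 141 bases and 1 base before it. The window of its next start site holds the later of these matches again, 243 bases before that site, and those of the other 3 hold none of the searched motifs. Slc3a1 and Slc7a11 each have 1 window, and the matches of Slc7a11 begin 66 and 47 bases before its start site. They are descriptions of letters and not evidence of binding.

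Windows were at hand for 36 of the 51 members, 56 windows in all since some genes have several start sites that overlap. On both strands, TGATGNAA was in 7.14% of the members' windows and in 3.97% of all 32851 windows of the table, and its 4 member windows belong to Slc1a4, Slc7a11 and Slc7a7. TGACNNNGC, a form of the antioxidant response element bound by NRF2, was in 16.1% of the members' windows and 12.4% of all. CAAAGTCCA was in 1.79% of the members' windows, that of Slc3a1 alone, and in 0.475% of all. The windows of Slc6a19, Slc7a8, Slc7a9, Slc3a2 and Slc6a12 had no match to these 3 motifs, which says only that the letters are not there.

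At the brush border, the neutral amino acid carrier and the cystine light chain were higher in Cre_positive glomeruli, while the heavy chain and the other carriers did not pass the test. The log2 fold changes of all 8 tested brush-border members were positive, with a median of 0.26. Of these 8, 2 were higher in edgeR's test, beside 3.73% of all genes, and 6 were not called. For 6, every Cre_positive library was above every Cre_negative library, beside 15.2% of all genes. At an unadjusted p of 0.05, 6 were higher, beside 11.5% of all genes, and DESeq2 and limma voom each called 3 higher, beside 7.04% and 4.03%. The group summed to 2700 to 2793 CPM in Cre_positive libraries and 2074 to 2540 CPM in Cre_negative libraries.

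Slc6a19 encodes B0AT1, the main carrier of neutral amino acids at the brush border, whose loss causes Hartnup disorder in humans. It had 326, 316 and 330.0 CPM in the Cre_positive libraries and 206, 213 and 159.5 CPM in the Cre_negative libraries. The 3 Cre_positive libraries lay close together and all above the highest Cre_negative library. The means were 324 ± 7.11 CPM in Cre_positive and 193 ± 29.0 CPM in Cre_negative (SD, n = 3 each), a log2 fold change of 0.75 (SE 0.11, 95% interval 0.50 to 1.00, adjusted p = 0.00598, edgeR). Leaving out any 1 library kept the adjusted p at 0.0375 or below. Slc6a18, a related carrier of neutral amino acids and glycine that lies next to Slc6a19 on chromosome 13, had 854, 963 and 873 CPM in Cre_positive libraries and 678, 848 and 1030 CPM in Cre_negative libraries. The genotypes overlapped (log2 fold change 0.07, 95% interval -0.25 to 0.40, adjusted p = 0.810), and its sign turned without Cre_negative replicate 1 (-0.07).

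Slc7a9 encodes b0,+AT, the light chain that takes up cystine and dibasic amino acids and is mutated in human cystinuria. Its level was 182, 166 and 187 CPM in Cre_positive libraries and 124, 118.5 and 139.9 CPM in Cre_negative libraries, with no overlap. The log2 fold change was 0.49 (SE 0.08, adjusted p = 0.0123, edgeR). The call was lost without Cre_positive replicate 1 (adjusted p = 0.0543) or Cre_positive replicate 3 (adjusted p = 0.0707).

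Slc3a1 encodes rBAT, the heavy chain that brings b0,+AT to the membrane and the other gene of cystinuria. Its level was 667, 644 and 679 CPM in Cre_positive libraries and 552, 602 and 601.5 CPM in Cre_negative libraries. No library overlapped, but the difference was small, with a log2 fold change of 0.18 (SE 0.08, 95% interval 0.01 to 0.36), and did not pass the test (adjusted p = 0.201, edgeR). Exons of Prepl lie opposite to Slc3a1, and the sources used here do not say whether the counting used strand. Prepl had a log2 fold change of 0.21 (adjusted p = 0.144).

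Slc7a13 encodes AGT1, another light chain of rBAT, which carries cystine and acidic amino acids in the later part of the proximal tubule. Its level was 37.6, 89.2 and 81.9 CPM in Cre_positive libraries and 6.503, 19.2 and 7.64 CPM in Cre_negative libraries. Every Cre_positive library was above every Cre_negative one, and both genotypes were widely spread. The log2 fold change, 2.65 (SE 0.59, 95% interval 1.13 to 4.17), was the highest of all members tested and did not pass in edgeR (adjusted p = 0.0680). The gene passed in DESeq2 (adjusted p = 0.000424), in limma voom (adjusted p = 0.0251) and in edgeR without Cre_negative replicate 2 (log2 fold change 3.29, adjusted p = 0.0362). It also passed in edgeR with robust=FALSE and with the replicate number as a block. Over all alternatives its adjusted p ranged from 0.000424 to 0.193.

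The remaining brush-border members were not called. Slc1a1, the glutamate and aspartate carrier EAAC1, had a log2 fold change of 0.12 (adjusted p = 0.453) with overlapping genotypes. Slc6a20a and Slc6a20b, carriers of proline and related imino acids, had 0.29 (adjusted p = 0.103) and 0.23 (adjusted p = 0.170), each without overlap. They are near-identical neighbours on chromosome 9, so reads may have been divided between them. Slc36a2, a proton-coupled carrier of proline and glycine, was below the count rule, with 6, 0 and 0 counts in Cre_positive libraries and 15, 0 and 26 in Cre_negative libraries.

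Partners of the carriers and peptidases that free amino acids were measured beside them. Of 12 such genes, 2 were higher, beside 3.73% of all genes, 10 were not called and the median log2 fold change was 0.22. Dpep1, a dipeptidase of the brush border, had 0.68 (adjusted p = 0.00214), and Mme, the peptidase neprilysin, had 0.64 (adjusted p = 0.0134). Without Cre_positive replicate 1 or 3, Dpep1 was the 1 gene called. Cltrn, collectrin, which holds B0AT1 at the brush border, had 1003, 915 and 1032.5 CPM in Cre_positive libraries and 756, 794 and 809 CPM in Cre_negative libraries. It just missed the threshold in edgeR (log2 fold change 0.32, adjusted p = 0.0522), and passed in DESeq2, in limma voom, with no filter on low counts and without Cre_negative replicate 3.

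Among the 20 tubule markers that are not amino acid carriers, 5 were higher (Lrp2, Slc5a2, Slc5a12, Slc34a1 and Miox) and 1 was lower (Slc2a2). Of all genes tested, 3.73% were higher and 3.82% were lower. The median log2 fold change of the 20 markers was 0.20. Without Cre_positive replicate 3, Lrp2 and Slc5a12 alone were called. Lrp2, the endocytic receptor megalin, had 0.83 (adjusted p = 0.00179). Of markers of other cells, 7 of 8 endothelial markers (median 0.62), 5 of 8 of the loop and distal nephron (median 0.49) and 3 of 10 podocyte markers (median 0.29) were higher in Cre_positive glomeruli. Of 6 mesangial markers (median 0.47), 3 were higher and 1 was lower, Serpine2, an inhibitor of serine proteases (log2 fold change -1.32, adjusted p = 0.0055). The loop and distal count was 2 without Cre_positive replicate 1 or 3 and 3 without Cre_positive replicate 2 or Cre_negative replicate 1 or 2. The podocyte count was 1 without Cre_positive replicate 2 or 3, and 2 or 3 when any other library was left out. The endothelial sum was 595 to 652 CPM in Cre_positive libraries and 390.2 to 427 CPM in Cre_negative libraries, and the loop and distal sum was 9453 to 10064 CPM in Cre_positive libraries and 5903 to 7271 CPM in Cre_negative libraries. No marker of these lists was at 0 in every library. Their part in the results for the transporters was not tested.

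**Figure D2:**
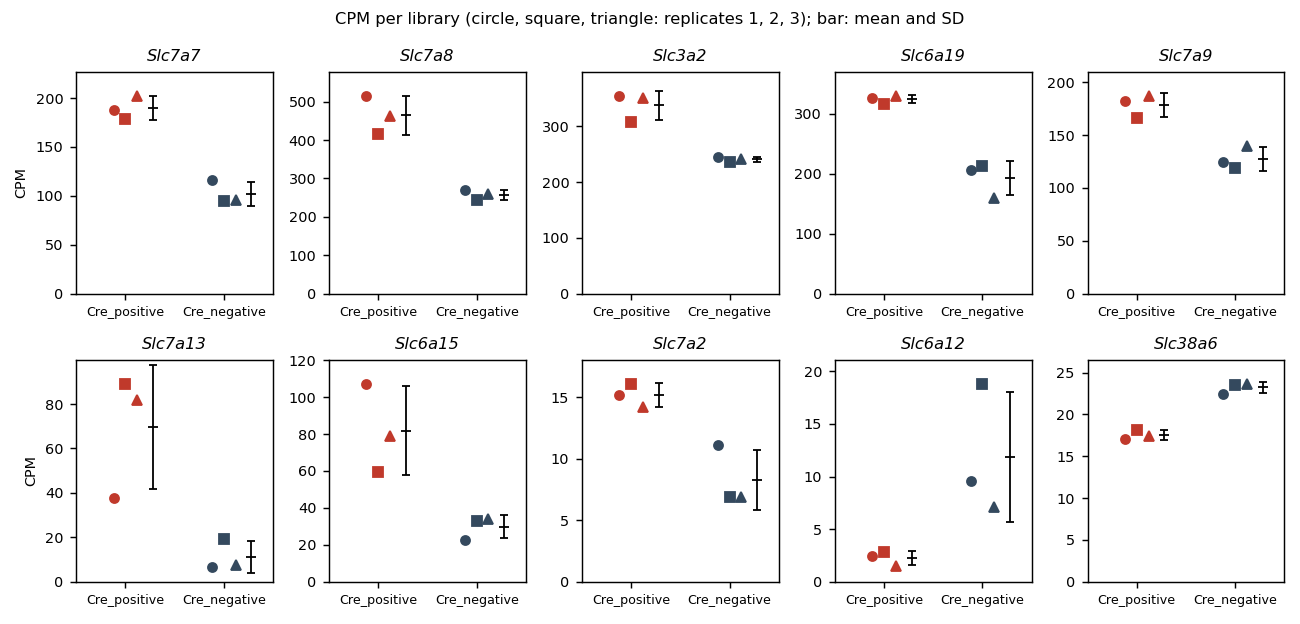
CPM (y axis, linear, from 0) of 10 members in each library, Cre_positive left of Cre_negative, with circles, squares and triangles for replicates 1, 2 and 3 and bars for the mean and SD. The Cre_positive points of Slc7a7, Slc7a8, Slc3a2, Slc6a19 and Slc7a9 all lie above the Cre_negative points, and those of Slc6a12 and Slc38a6 all lie below.

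At the basolateral membrane, both major light chains and their heavy chain were higher in Cre_positive glomeruli, and the other 3 members were not called. Of 6 tested, 3 were higher in edgeR's test, beside 3.73% of all genes, and 3 were not called. The median log2 fold change was 0.24. At an unadjusted p of 0.05 there were again 3 higher, beside 11.5% of all genes. DESeq2 and limma voom also called 3 higher, beside 7.04% and 4.03%. The group summed to 1331 to 1543 CPM in Cre_positive libraries and 1022 to 1093 CPM in Cre_negative libraries, without overlap.

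Slc7a7 encodes y+LAT1, which exports dibasic amino acids to the blood and is mutated in lysinuric protein intolerance in humans. Its level was 188, 179 and 202 CPM in Cre_positive libraries and 116, 94.8 and 95.6 CPM in Cre_negative libraries. The lowest Cre_positive library stood well above the highest Cre_negative one. The means were 189.7 ± 11.95 CPM in Cre_positive and 102 ± 12.1 CPM in Cre_negative (SD, n = 3 each), a log2 fold change of 0.89 (SE 0.10, 95% interval 0.68 to 1.11, adjusted p = 0.0016, edgeR). Its exons overlap those of Oxa1l on the opposite strand, which had a log2 fold change of 0.14 (adjusted p = 0.204).

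Slc7a8 encodes LAT2, an exchanger of neutral amino acids. Its level was 515, 415.5 and 462 CPM in Cre_positive libraries and 269.7, 244 and 258 CPM in Cre_negative libraries. Cre_positive replicate 1 was the highest library and no library overlapped (log2 fold change 0.85, SE 0.10, adjusted p = 0.00186, edgeR). With any 1 library left out the adjusted p was at most 0.0138 for Slc7a7 and 0.0158 for Slc7a8. In the annotation both genes lie on chromosome 14, as does Setdb2.

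Slc3a2 encodes 4F2hc, also called CD98, the heavy chain that y+LAT1, LAT2 and several other light chains need. Its level was 355, 308 and 350.5 CPM in Cre_positive libraries and 245.5, 237 and 242 CPM in Cre_negative libraries. The Cre_negative libraries lay close together and below every Cre_positive library (log2 fold change 0.49, SE 0.08, adjusted p = 0.0096, edgeR). Without Cre_positive replicate 3 the call was lost (adjusted p = 0.0608).

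The 3 basolateral members that were not called differed in how closely they were measured. Slc43a2, the uniporter LAT4, had 287, 265 and 269 CPM in Cre_positive libraries and 282, 273 and 274 CPM in Cre_negative libraries. Its log2 fold change was -0.01 with a 95% interval of -0.17 to 0.14, which does not reach the estimates of Slc3a2, Slc7a7 or Slc7a8. Slc38a3, a glutamine carrier of this membrane, had 189, 154 and 120.5 CPM in Cre_positive libraries and 122, 229.9 and 145 CPM in Cre_negative libraries, which overlapped widely (log2 fold change -0.10, 95% interval -0.78 to 0.57, adjusted p = 0.871). Slc7a6, the y+LAT2 light chain, had a log2 fold change of -0.36 (adjusted p = 0.445) at 8.93 ± 1.07 CPM in Cre_positive and 11.5 ± 3.95 CPM in Cre_negative (SD, n = 3 each).

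To set levels of different genes beside each other, CPM was divided by exon length in kilobases. On this scale Slc3a1 was the highest member in both genotypes, at 292 ± 7.74 CPM per kilobase in Cre_positive and 258 ± 12.7 in Cre_negative (SD, n = 3 each). Slc6a18 was the next, at 203 ± 13.2 in Cre_positive and 193 ± 39.8 in Cre_negative, and in Cre_negative libraries its range reached close to that of Slc3a1. Slc7a12 followed, at 124 ± 25.3 in Cre_positive and 81.1 ± 24.7 in Cre_negative. Its range overlapped that of Slc3a2 in both genotypes, which had 95.8 ± 7.38 in Cre_positive and 68.4 ± 1.27 in Cre_negative, and Slc7a8 had 92.7 ± 9.99 in Cre_positive and 51.4 ± 2.60 in Cre_negative. Slc3a2, Slc7a8 and Slc7a12 had overlapping ranges in Cre_positive libraries. Slc7a9 and Slc6a19 held ranks 6 and 7 in Cre_positive and 7 and 10 in Cre_negative, and Slc7a7 held rank 8 in Cre_positive and 14 in Cre_negative.

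Brush-border members took 50.6% to 52.0% of the members' length-scaled signal in Cre_positive libraries and 49.1% to 53.0% in Cre_negative libraries. The basolateral share was 19.6% to 23.0% in Cre_positive libraries and 16.5% to 18.9% in Cre_negative libraries. Stress-induced members took 2.83% to 3.36% in Cre_positive libraries and 4.09% to 4.95% in Cre_negative libraries. The brush-border share overlapped between genotypes, and the other 2 shares did not.

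The length-scaled ratio of a heavy chain to its summed light chains was lower in every Cre_positive library than in any Cre_negative library, for both heavy chains. These ratios were among 7 chosen after the members' values were seen. Slc3a1 per light chain (Slc7a9 plus Slc7a13) was 3.43, 2.73 and 2.76 in Cre_positive libraries and 4.91, 4.98 and 4.74 in Cre_negative libraries. Slc3a2 per light chain (Slc7a5, Slc7a6, Slc7a7, Slc7a8 and Slc7a11) was 0.617, 0.623 and 0.636 in Cre_positive libraries and 0.744, 0.815 and 0.820 in Cre_negative libraries. Neither ratio overlapped, and each gave p = 0.1 in a two-sided exact permutation test, the smallest that 3 samples against 3 allow, or 0.14 adjusted over the 7 ratios.

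Ratios between light chains, between 2 Slc6 carriers and between whole groups gave a mixed picture. Slc7a13 per Slc7a9 was 0.258, 0.671 and 0.547 in Cre_positive libraries and 0.0654, 0.203 and 0.0683 in Cre_negative libraries, without overlap. Slc7a7 per Slc7a8 overlapped, averaging 0.621 ± 0.061 in Cre_positive and 0.599 ± 0.047 in Cre_negative (SD, n = 3 each). Slc6a19 per Slc6a18 was 0.337, 0.29 and 0.334 in Cre_positive libraries and 0.268, 0.221 and 0.137 in Cre_negative libraries. Basolateral per brush-border signal overlapped, at 0.455, 0.378 and 0.405 in Cre_positive libraries and 0.385, 0.351 and 0.311 in Cre_negative libraries (p = 0.2, exact permutation test, two-sided, 0.233 adjusted).

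**Figure D3:**
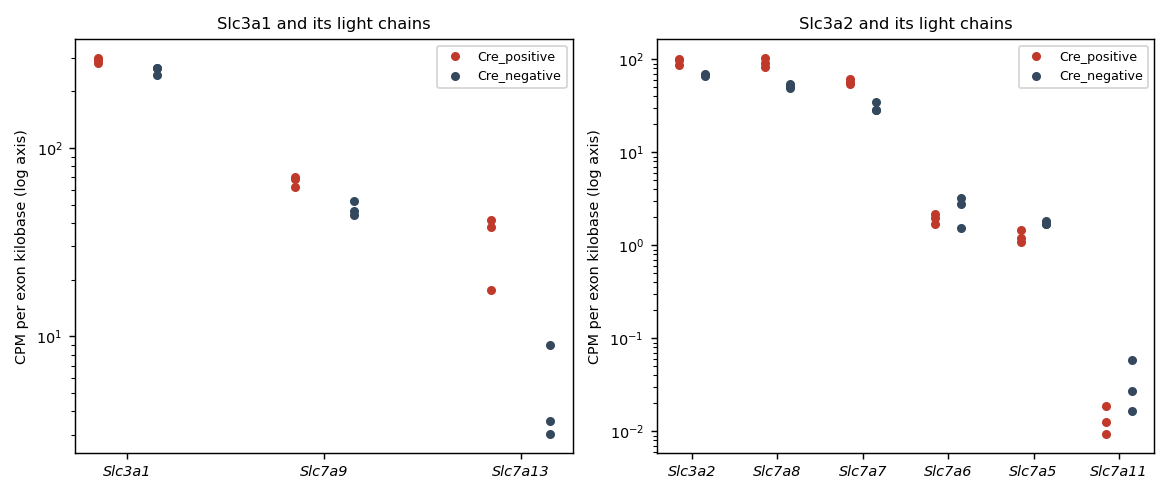
Length-scaled levels (CPM per kilobase of exon, logarithmic y axis) of the heavy chains and their light chains in each library, Cre_positive left of Cre_negative. Slc3a1 stands at 292 in Cre_positive and 258 in Cre_negative, above its light chains, and the Cre_positive points of Slc3a2, Slc7a7 and Slc7a8 lie above their Cre_negative points.

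The stress-induced carriers had mostly negative estimates, and none passed edgeR's test. Of 8 members, 7 had log2 fold changes below 0, and the median was -0.49. For 4, every Cre_positive library was below every Cre_negative library, beside 14.5% of all genes. With edgeR 0 were higher and 0 lower, while at an unadjusted p of 0.05 there were 5 lower, beside 12% of all genes, and 0 higher. DESeq2 called 3 lower (Slc38a2, Slc6a9 and Slc7a3), beside 7.95% of its genes, and limma voom called 1 lower (Slc7a3), beside 4.24%. The group summed to 234.5, 282 and 241 CPM in Cre_positive libraries and 288, 367 and 307 CPM in Cre_negative libraries, without overlap.

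Slc6a9, the glycine carrier GlyT1, had the smallest p of the group, with 8.06, 12.8 and 10.03 CPM in Cre_positive libraries and 18.1, 18.7 and 13.2 CPM in Cre_negative libraries. The genotypes did not overlap, though Cre_positive replicate 2 and Cre_negative replicate 3 came close (log2 fold change -0.69, SE 0.20, adjusted p = 0.0715, edgeR), and the gene passed without Cre_negative replicate 3 (adjusted p = 0.0339). Exons of B4galt2 and Ccdc24 lie opposite to it. Slc7a3, a cationic amino acid carrier at low level, had 25, 83 and 27 counts in Cre_positive libraries and 160, 119 and 113 counts in Cre_negative libraries. Replicate 2 stood apart among the Cre_positive libraries (log2 fold change -1.47, SE 0.45, adjusted p = 0.0876), and without it the gene passed (log2 fold change -2.21, adjusted p = 0.0225).

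Slc38a2 encodes SNAT2, the carrier of small neutral amino acids whose transcription rises when amino acids run short. Its level was 99.4, 128 and 105 CPM in Cre_positive libraries and 126, 189.8 and 154 CPM in Cre_negative libraries. Cre_positive replicate 2 overlapped Cre_negative replicate 1 (log2 fold change -0.50, SE 0.16, 95% interval -0.87 to -0.13, adjusted p = 0.106, edgeR). It passed without Cre_negative replicate 1 (adjusted p = 0.0305). Slc7a5, the light chain LAT1, had a log2 fold change of -0.48 (adjusted p = 0.154) and Slc1a5, the glutamine exchanger ASCT2, had -0.21 (adjusted p = 0.174), both without overlap between genotypes.

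Slc7a11, the cystine and glutamate exchanger xCT and a target of both ATF4 and NRF2, was the lowest member per kilobase in both genotypes. It had 14, 10 and 7 counts in Cre_positive libraries and 23, 45 and 13 in Cre_negative libraries, which overlapped (log2 fold change -1.30, 95% interval -2.74 to 0.13, adjusted p = 0.256). Slc7a1, the cationic carrier CAT1, had -0.16 (adjusted p = 0.534). Slc1a4, the exchanger ASCT1, was the member of the group with a positive estimate, 0.18 (adjusted p = 0.527).

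The regulators and other targets of these pathways were measured beside the carriers. Of 19 tested genes of the amino acid stress response, 6 were lower in edgeR's test, beside 3.82% of all genes, and 13 were not called. The median log2 fold change was -0.46. The 6 were Atf5 (-0.69), Trib3 (-1.41), Sesn2 (-0.41), Asns (-1.38), Mthfd2 (-1.17) and Cebpb (-0.65). DESeq2 called these 6 and also Atf3, Psat1, Aldh18a1 and Nupr1 lower, beside 7.95% of its genes, and Stc2 higher. Stc2 had the highest log2 fold change of the list, 2.04, without overlap, and did not pass in edgeR (adjusted p = 0.101). It was also called higher in limma voom, and in edgeR with robust=FALSE, with the replicate number as a block and without Cre_negative replicate 3. Asns, the asparagine synthetase, had 2.72, 3.37 and 3.43 CPM in Cre_positive libraries and 11.8, 7.66 and 5.28 CPM in Cre_negative libraries. Atf4 itself had 93.4, 104 and 101.5 CPM in Cre_positive libraries and 93.4, 118 and 100.3 CPM in Cre_negative libraries, which overlapped (log2 fold change -0.06, adjusted p = 0.768). The 6 calls fell to 0 without Cre_positive replicate 1 or 3 and to 2 without Cre_negative replicate 2.

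Of 8 NRF2 targets outside the transporter families, 4 were lower in edgeR's test, beside 3.82% of all genes, and 4 were not called. The median log2 fold change was -0.29. The lower ones were Hmox1 (-0.91, adjusted p = 0.00351), Srxn1 (-0.55, adjusted p = 0.00402), Txnrd1 (-0.38, adjusted p = 0.0123) and Gclc (-0.42, adjusted p = 0.0134). The count was 2 when any 1 Cre_positive library was left out. Markers of injured tubule were also lower, 5 of 8 of them, beside 3.82% of all genes, with a median of -1.98. They summed to 1795 to 2011 CPM in Cre_positive libraries and 3576 to 10812 CPM in Cre_negative libraries. Without Cre_positive replicate 1 or 3 none of these 8 passed, though 7 were lower at an unadjusted p of 0.05. Their part in the values of the stress-induced carriers was not tested.

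**Figure D4:**
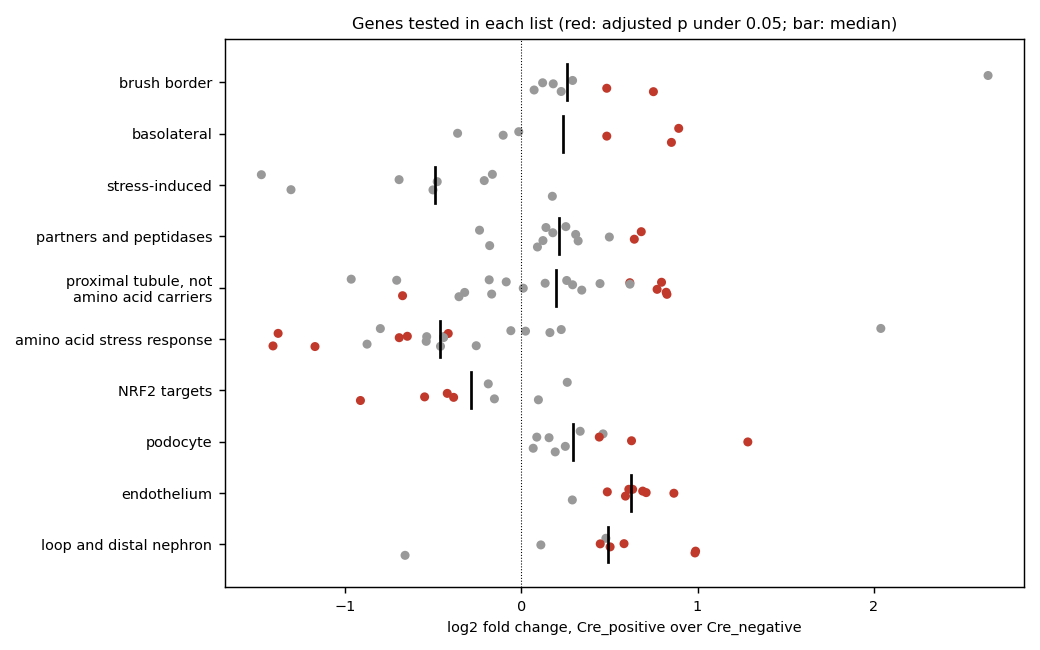
Log2 fold changes of Cre_positive over Cre_negative (x axis) for the tested genes of 3 role lists and 7 pathway and marker lists down the page, with red points for an adjusted p under 0.05, grey points for the others and a black bar at each list's median. Brush-border and basolateral medians are 0.26 and 0.24, the stress-induced median is -0.49, and that of the amino acid stress response is -0.46.

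Among carriers of osmolytes, neurotransmitters and related compounds, 1 of 10 tested was higher and 1 was lower, beside 3.73% and 3.82% of all genes. Both had larger log2 fold changes in size than the called brush-border and basolateral members. Slc6a15 encodes B0AT2, a carrier of branched-chain amino acids and proline best known from brain. Its level was 107, 59.2 and 79.2 CPM in Cre_positive libraries and 22.8, 32.8 and 33.9 CPM in Cre_negative libraries. Every Cre_positive library was above every Cre_negative library, with replicate 1 the highest (log2 fold change 1.46, SE 0.25, 95% interval 0.85 to 2.06, adjusted p = 0.0214, edgeR). The call was lost without Cre_positive replicate 3 (adjusted p = 0.0685), Cre_negative replicate 1 (0.0607) or Cre_negative replicate 2 (0.0707), and with the replicate number as a block (0.0902).

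Slc6a12 encodes the betaine and GABA carrier BGT1, which medullary kidney cells use to take up the osmolyte betaine. Its level was 2.44, 2.84 and 1.49 CPM in Cre_positive libraries and 9.62, 18.8 and 7.07 CPM in Cre_negative libraries. All Cre_positive libraries were below the lowest Cre_negative one, and Cre_negative replicate 2 was the highest. Means were 2.26 ± 0.69 CPM in Cre_positive and 11.8 ± 6.19 CPM in Cre_negative (SD, n = 3 each), a log2 fold change of -2.39 (SE 0.41, 95% interval -3.35 to -1.43, adjusted p = 0.0157, edgeR). Without Cre_positive replicate 1, 2 or 3 the adjusted p was 0.0675, 0.0527 or 0.0650.

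Slc6a13, the GABA carrier GAT2, lies next to Slc6a12 on chromosome 6 and differed little, with 115, 139.7 and 123 CPM in Cre_positive libraries and 105, 148 and 115 CPM in Cre_negative libraries (log2 fold change 0.04, 95% interval -0.26 to 0.34, adjusted p = 0.902). The length-scaled ratio of Slc6a12 to Slc6a13 was 0.0202, 0.0194 and 0.0115 in Cre_positive libraries and 0.0869, 0.121 and 0.0587 in Cre_negative libraries. Other genes tied to osmolytes, looked at after the results were seen, were not called. Nfat5, the transcription factor of the osmotic response, had a log2 fold change of 0.15 (adjusted p = 0.395), and Slc5a3, the myo-inositol carrier, had -0.12 (adjusted p = 0.770). Slc6a6, the taurine carrier, had -0.13 (95% interval -0.48 to 0.22, adjusted p = 0.671) and Slc6a8, the creatine carrier, had -0.18 (adjusted p = 0.342), both with overlapping genotypes. Slc6a17, a vesicular carrier of neutral amino acids in neurons, had 0.29 (adjusted p = 0.119) with no overlap. Slc1a2 and Slc1a3, glutamate carriers of glia, Slc6a4, the serotonin carrier, and Slc6a7, a proline carrier of brain, had estimates between -0.13 and 0.46 with overlapping genotypes. Of these, Slc6a4 passed without Cre_negative replicate 3 (log2 fold change 0.81, adjusted p = 0.041). Slc1a7, which was not tested, had 12, 5 and 6 counts in Cre_positive libraries and 25, 10 and 0 in Cre_negative libraries.

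Of 11 members with other roles, 1 was higher and 1 was lower, beside 3.73% and 3.82% of all genes. Their median log2 fold change was -0.21. Slc7a2 encodes CAT2, a carrier of arginine and other cationic amino acids that supplies nitric oxide synthesis in macrophages. It had 15.2, 16.1 and 14.2 CPM in Cre_positive libraries and 11.1, 6.85 and 6.91 CPM in Cre_negative libraries, without overlap (log2 fold change 0.87, SE 0.20, adjusted p = 0.0325, edgeR). The call was lost without any 1 Cre_positive library (adjusted p = 0.0977, 0.118 and 0.0997) and without Cre_negative replicate 2 (0.0901) or 3 (0.0645). Of 6 macrophage markers, 1 (C1qc) was lower, beside 3.82% of all genes, and 5 were not called. Their sums overlapped at 139.1 to 152 CPM in Cre_positive libraries and 132.5 to 232 CPM in Cre_negative libraries. Their part in the result for Slc7a2 was not tested.

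Slc38a6, a member of the glutamine carrier family, had 17.1, 18.2 and 17.4 CPM in Cre_positive libraries and 22.5, 23.6 and 23.7 CPM in Cre_negative libraries. Both genotypes were tight and did not overlap, and the difference was modest (log2 fold change -0.41, SE 0.09, adjusted p = 0.0264, edgeR). The call was lost without any 1 Cre_positive library (adjusted p = 0.0998, 0.0796 and 0.112), without Cre_negative replicate 2 (0.0693) and with the replicate number as a block (0.0503). Slc7a12, the carrier asc-2 known in mouse kidney, had 171, 216 and 259 CPM in Cre_positive libraries and 112, 121.5 and 190.5 CPM in Cre_negative libraries, which overlapped (log2 fold change 0.61, SE 0.24, adjusted p = 0.193). It passed without Cre_negative replicate 3 (adjusted p = 0.0225). In the same libraries Kap, an androgen-responsive gene of the mouse proximal tubule, had 6717, 6818 and 5582 CPM in Cre_positive and 138, 146 and 448 CPM in Cre_negative (log2 fold change 4.71, adjusted p = 0.0132). Of the 4 genes of that marker list, 3 were tested and 1 was higher, beside 3.73% of all genes. The median log2 fold change of the 3 tested was -0.13. The part of these genes in the values of Slc7a12 and Slc7a13 was not tested.

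In edgeR's test the other members of this group did not pass. DESeq2 called 2 higher and 2 lower in the whole group, adding Slc7a12 and Slc7a4, beside 7.04% and 7.95% of its genes. Every Cre_positive library was below every Cre_negative library for 5 of the 11, beside 14.5% of all genes, and above for 1, beside 15.2%. Slc7a4, a protein related to the cationic carriers, had a log2 fold change of -0.50 (adjusted p = 0.111 in edgeR and 0.0397 in DESeq2, and up to 0.277 over the alternatives), and exons of P2rx6 lie opposite to it. The nearby genes Slc43a1, the uniporter LAT3 that podocytes also make, and Slc43a3, a carrier of purine nucleobases, had -0.44 (adjusted p = 0.336) and -0.21 (adjusted p = 0.132). For all 3 the genotypes did not overlap. Slc7a15 also showed no overlap, at 6, 4 and 7 counts in Cre_positive libraries and 21, 13 and 15 in Cre_negative libraries (log2 fold change -1.42, adjusted p = 0.207). Slc38a1, Slc38a4, Slc38a11 and Slc6a14 overlapped, with estimates between -0.26 and 0.61.

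Carriers of lysosomes and other inner membranes had small differences. Of 5 members, edgeR called 0 higher and 0 lower, as did DESeq2 and limma voom. At an unadjusted p of 0.05 there was 1 higher, beside 11.5% of all genes, and 0 lower, beside 12%. For 2, every Cre_positive library was above every Cre_negative library, beside 15.2% of all genes, and below for 0, beside 14.5%. The median log2 fold change of the 5 members was 0.08, with estimates between -0.03 and 0.20. Slc36a1, a proton-coupled exporter of small amino acids from lysosomes, had the smallest p, with 117, 105 and 120.2 CPM in Cre_positive libraries and 101, 92.6 and 104 CPM in Cre_negative libraries. The groups were barely apart (log2 fold change 0.20, 95% interval 0.02 to 0.38, adjusted p = 0.171). Slc38a9, the lysosomal arginine sensor that signals to mTORC1, had 24.2, 23.6 and 21.8 CPM in Cre_positive libraries and 26.7, 19.6 and 24.7 CPM in Cre_negative libraries (log2 fold change -0.03, 95% interval -0.31 to 0.25). Slc36a4, Slc38a7, a lysosomal glutamine exporter, and Slc38a10 had 0.08, 0.10 and 0.07, and Slc38a10 alone of these did not overlap. Neither opposite-strand symbol was called, with 0 at an unadjusted p of 0.05 and 0 in DESeq2 and limma voom. Slc7a6os, which encodes a factor for nuclear import of RNA polymerase II, had a log2 fold change of 0.00 with a 95% interval of -0.19 to 0.20, and Slc6a19os had -0.90 at 12 to 37 counts in Cre_positive libraries and 33 to 82 counts in Cre_negative libraries (adjusted p = 0.335).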

How the data were processed

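RNA of 6 glomerular samples was sequenced, per the labels' protocols as polyadenylated RNA in strand-marked libraries. The authors deposited whole-number read counts per Ensembl gene. Per the submitters' processing notes the tools were fastp, HISAT2, StringTie and edgeR (no versions) and the build was GRCm39. The sources used here do not state the annotation, the strand setting or how multiply mapped reads were handled, so counts of overlapping or near-identical genes are uncertain.

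Symbols came from a table of Ensembl identifiers that covered 51880 of 57132 rows. Exon lengths, chromosomes and overlaps came from GENCODE M21 (GRCm38), another build than that of the submitters. The only coordinates printed are those of the promoter windows shown, which are also in GRCm38. Counts were analysed as deposited in R 4.3.3 with edgeR 4.0.16 (filterByExpr, TMM, quasi-likelihood test with robust=TRUE, Benjamini-Hochberg adjustment over 19927 genes, threshold 0.05). CPM used library sizes multiplied by TMM factors (0.979 to 1.03). Standard errors were taken as the size of the log2 fold change over the root of the F statistic. The biological coefficient of variation was 21.5%. The test was also run on simulated data with known changes. Every pair of libraries differed by more than sampling noise (chi-square per degree of freedom at least 20.6).

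Members were named when they passed the threshold, were a heavy or light chain, belonged to the brush-border, basolateral or stress-induced list, or had the smallest p of their list. The other 22 tested members, and Atf4, Cltrn, Kap, Stc2 and overlapping genes outside the families, were added after their values were seen. The members and all gene lists were chosen with earlier results of these data known. Alternatives were DESeq2 1.42.0, limma 3.58.1 voom with quality weights, other normalization factors, filters and thresholds, robust=FALSE, a replicate block and each library left out. Promoter windows came from RefSeq (GRCm38.p6). Of the lists and motifs, 1 list of tubule regulators and 1 motif are not reported here.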

Additional observations from a re-analysis of the deposited data

How the results depend on the processing

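All 9 called members kept their direction under every alternative run, and 728 of 800 values of the 50 tested members kept both direction and side of the threshold. Since 41 of the 50 were not called in the main fit, most of these values are of members that stayed uncalled. Of the other values, 25 lost a call, 22 gained one and 25 turned sign. With 1 library left out, the signs of Slc38a3 (-0.28 to 0.206), Slc43a2 (-0.0479 to 0.00853), Slc6a13 (-0.0604 to 0.19), Slc6a18 (-0.0662 to 0.232), Slc1a2 (-0.31 to 0.0888), Slc36a4 (-0.0401 to 0.209), Slc38a9 (-0.151 to 0.0676), Slc6a14 (-0.582 to 0.392), Slc6a7 (-0.1 to 1.06) and Slc7a6os (-0.0411 to 0.0359) turned. Limma voom also turned Slc38a9 (0.00594), Slc6a14 (0.0923) and Slc7a6os (-0.00323), and DESeq2 (-0.00092) and its size factors in edgeR (-0.000855) turned Slc7a6os. Higher members numbered 3 to 9 and lower members 0 to 3 with 1 library left out, lowest without Cre_positive replicate 3, and genes called overall 462 to 2039. DESeq2 called 6 members lower and 2697 genes in all. A threshold of 0.01 left 4 members higher, 0 lower and 414 genes, and one of 0.1 gave 4 members lower and 2562 genes. No scaling moved the median of all genes by more than 0.01 on the log2 scale. With the replicate number as a block, 8 members were higher and 2 lower, 7 of these 10 shared with the fit without it. To look for pairing, each gene's mean within its genotype was subtracted from log CPM, and these deviations were correlated between genotypes. The deviations of same-numbered samples correlated at 0.0547, 0.0551 and 0.0173, and those of differently numbered ones at -0.0684 to 0.017. With 3 samples per genotype, these values cannot show whether same-numbered samples belong together. The cause of these differences was not tested. Slc7a11, at 7 to 14 counts in Cre_positive libraries and 13 to 45 in Cre_negative libraries, has few counts behind its estimate.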
